A study of Rattus norvegicus with 6 samples.

Results

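The 10 genes described here are *Wnt6*, *Wnt5a*, *Wnt5b*, *Wnt10a*, *Axin2*, *Lef1*, *Tcf7l2*, *Lgr5*, *Dkk3* and *Sfrp1*, which were picked by symbol as members of the Wnt pathway from the 17327 genes counted in each library. They were picked with the response of these cells to soluble NRG1 in view, so their own NRG1 to mock differences are a description, given without a p-value, and the thresholds of the fit across all genes are named beside them for reference only. The libraries came from primary Schwann cells, the glia of peripheral nerves, taken from sciatic nerves of adult female Wistar rats. Confluent cells were starved for 18 h in medium with 2% foetal bovine serum and 10 μM forskolin, a drug that raises cAMP. The 3 NRG1 samples then received 10 nM recombinant soluble NRG1β1 for 6 h, and the 3 mock samples the same volume of its buffer, PBS with 1% bovine serum albumin. Before starvation the cells had been grown with a neuregulin, which the methods give as soluble NRG1β1 and the labels as glial growth factor, so mock cells had been withdrawn from it and were not without earlier exposure. Both groups carried forskolin, and cultured cells of this kind have lost their contact with axons. Replicates 1, 2 and 3 were independent experiments, each with 1 mock and 1 NRG1 sample.

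Wnt proteins are lipid-bound secreted signals that act over short distances. At the cell surface they bind Frizzled receptors and, in the canonical branch, the co-receptors Lrp5 and Lrp6. This stops the Axin and Apc complex from marking β-catenin for destruction, and β-catenin then works with the DNA-binding proteins of the TCF/LEF family. Other ligands, among them Wnt5a, act mostly through Ror and Ryk receptors without β-catenin. Secreted inhibitors of the Dkk and Sfrp families and feedback genes such as *Axin2* limit the signal. In peripheral nerves the pathway has been linked to Schwann cell proliferation and to the timing of myelination.

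Upstream sequence was at hand for 6 of the 10 genes in the RefSeq promoter table (GRCr8 build, whereas the reads were mapped by the authors to rn5), without *Wnt5b*, *Lgr5*, *Dkk3* and *Sfrp1*. The 3 windows shown, each the 250 bases before the annotated start, belong to the ligand with the largest change, the TCF/LEF factor that changed with it in the opposite direction, and the feedback gene that is widely used as a readout of β-catenin. They lie at chr9:83778302-83778551 for *Wnt6*, chr2:222340463-222340712 for *Lef1* and chr10:94398535-94398784 for *Axin2*, all on the plus strand. Capitals mark GC boxes in *Wnt6*, an AP-1 match in *Lef1* and TCF/LEF core matches in *Axin2*.
Wnt6: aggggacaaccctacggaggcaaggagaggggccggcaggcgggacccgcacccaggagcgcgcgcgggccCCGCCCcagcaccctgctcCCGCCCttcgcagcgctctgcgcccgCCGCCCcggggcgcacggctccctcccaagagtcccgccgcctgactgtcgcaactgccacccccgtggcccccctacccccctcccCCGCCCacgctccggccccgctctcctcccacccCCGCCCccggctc
Lef1: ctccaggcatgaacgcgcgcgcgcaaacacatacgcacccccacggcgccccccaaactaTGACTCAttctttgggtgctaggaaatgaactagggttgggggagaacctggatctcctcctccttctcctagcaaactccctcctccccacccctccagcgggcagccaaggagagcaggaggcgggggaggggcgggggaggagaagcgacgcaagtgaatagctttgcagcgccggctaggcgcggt
Axin2: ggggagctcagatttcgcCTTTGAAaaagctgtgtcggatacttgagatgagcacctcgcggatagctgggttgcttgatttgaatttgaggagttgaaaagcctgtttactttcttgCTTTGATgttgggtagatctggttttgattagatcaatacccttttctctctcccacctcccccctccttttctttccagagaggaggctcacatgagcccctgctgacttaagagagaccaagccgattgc

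The letters searched on both strands were GGGCGG for the GC box, TGAGTCA for AP-1 and, for the TCF/LEF core, CTTTG followed by any pair of bases made of A and T. The *Wnt6* window held 5 GC boxes and no match to the other motifs, and 79.6% of its bases were G or C, against a median of 51.2% over the 33469 promoters of the table. A GC box was present in 30.5% of all these promoters. The *Lef1* window had 1 AP-1 match, found in 4.05% of promoters, and 1 GC box, which is left in lower case. The search gave *Axin2* 2 TCF/LEF cores, starting at -232 and -132 from the start of the gene, while 14.9% of promoters had at least 1. The windows of *Wnt5a* and *Wnt10a* had none of the 3 motifs, and that of *Tcf7l2* had 6 GC boxes. A match to these letters is a description of the window and not a mapped binding site.

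**Figure D1:**
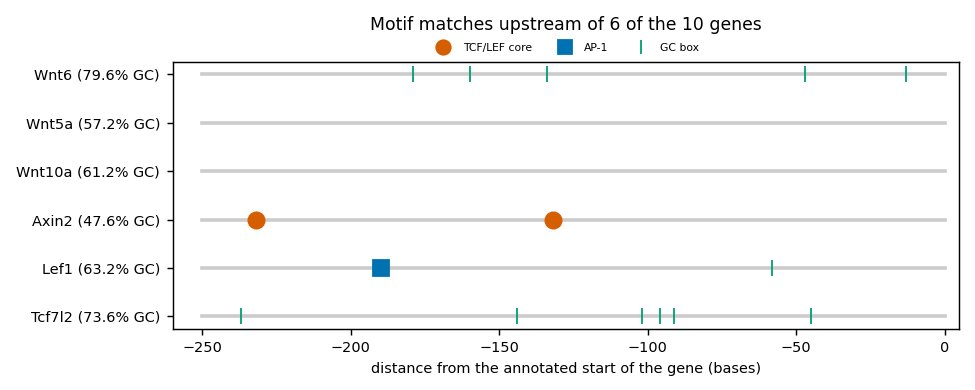
Motif matches in the 250 bases before the start of 6 genes, with the distance from the annotated start in bases on the x axis and 1 gene per line with its G and C content. The circles of *Axin2*, at -232 and -132, are the only TCF/LEF cores among the 6 windows, and *Wnt6* and *Tcf7l2* carry 5 and 6 GC boxes.

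Counts on genes ranged from 6821590 to 15475018 per library, so that 3 counts, taken as the smallest level that could be read, corresponded to between 0.194 and 0.444 CPM (counts scaled to library size, after TMM normalisation). The defining Schwann cell genes were present in every library, with none of the 7 markers at 0. The 2 libraries of replicate 1 stood apart: summed over the list, Schwann cell markers reached 4414 and 5276 CPM there, against 10978 to 13974 CPM in replicates 2 and 3. Fibroblast markers summed to 53432 and 57725 CPM in replicate 1 and to between 13694 and 22334 CPM in the other libraries, and pericyte and smooth muscle markers to 3132 and 3196 CPM against 227.4 to 411.7 CPM. *Dcn*, *Lum*, *Thy1* and *Rgs5* had no count at all in replicates 2 and 3, and *Col1a2* had at most 2 counts in any library, although *Col1a1* was abundant in all of them. Within pairs, the Schwann cell sum was lower in the NRG1 sample each time, from 5276 to 4414, 13974 to 10978 and 13236 to 11444 CPM, while the fibroblast sum went from 53432 to 57725, from 22334 to 13694 and from 14064 to 13926 CPM. Endothelial markers summed to at most 15.2 CPM and macrophage and immune markers to at most 4.6 CPM. In RNA from a whole culture, fewer cells of a type and less RNA per cell cannot be told apart. NRG1 and mock were therefore compared within replicates, with the replicate number as a block in edgeR's quasi-likelihood test over 9740 genes. A gene was called at an adjusted p of at most 0.01 with an absolute log2 fold change over 1, which held for 1.56% of the tested genes upwards and 1.91% downwards. At the adjusted p alone, 6.31% rose and 5.51% fell. Without the block no gene passed in edgeR, where 1334 had an unadjusted p under 0.05.

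Of the 10 genes, 7 passed the filter on low counts. *Wnt6* and *Lgr5* were past both thresholds downwards and *Lef1* upwards, and *Wnt5a*, *Axin2*, *Tcf7l2* and *Sfrp1* were past neither. *Wnt5b*, *Wnt10a* and *Dkk3* were not tested. Because the genes were picked on this contrast, the 3 calls are not read against the background of 3.47% of genes called in either direction.

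*Wnt6* encodes a Wnt ligand best known from epithelia and the neural crest. Its counts were 22, 34 and 72 in mock replicates 1, 2 and 3 and 0, 4 and 9 in the NRG1 samples of the same numbers. In CPM these are 2.94, 5.03 and 5.67 in mock and 0, 0.45 and 0.58 after NRG1, so all NRG1 libraries lay below all mock libraries. Such a complete separation with NRG1 lower occurred in 9.94% of the tested genes. The fitted log2 fold change of *Wnt6* was -3.58 (standard error, SE, 0.42). This was the most negative value among the 9740 genes tested, but the rank is not read as a result. *Wnt6* was picked on this contrast, and it passed the low-count filter through its mock libraries alone. Within pairs, the mock level was 11.2 times the NRG1 level in replicate 2 and 9.76 times in replicate 3. In replicate 1, where NRG1 left no count, it was at least 7.35-fold higher, with 3 counts as the floor. The whole signal rests on 128 counts in mock and 13 after NRG1, so the direction was the same in the 3 pairs but the size of the change is imprecise. In replicate 1, where the fibroblast and smooth muscle markers were highest, *Wnt6* had the lowest mock level of the 3, from 22 counts. Which cells of the cultures gave the *Wnt6* counts was not tested.

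The other 3 ligands behaved differently. *Wnt5a*, the typical ligand of β-catenin independent signalling, was at 387, 16.6 and 16.1 CPM in mock and at 325, 15.9 and 9.94 CPM after NRG1 in replicates 1, 2 and 3. It differed far more between cultures than within pairs, with replicate 1 at 24.4 times the mean of the other cultures and 89.7% of all *Wnt5a* counts. The log2 fold change was -0.33 (SE 0.14), and the pair ratios were -0.25, -0.06 and -0.68 on the log2 scale. *Wnt10a*, a canonical ligand that is the next coding gene after *Wnt6* on chromosome 9 of GRCr8, had 0, 2 and 0 counts in mock and 0, 1 and 1 after NRG1. *Wnt5b*, a close relative of *Wnt5a*, had 2, 0 and 0 counts in mock and 3, 1 and 0 after NRG1. Both stayed at or under 3 counts in every library, so no change of either was detectable at this depth.

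**Figure D2:**
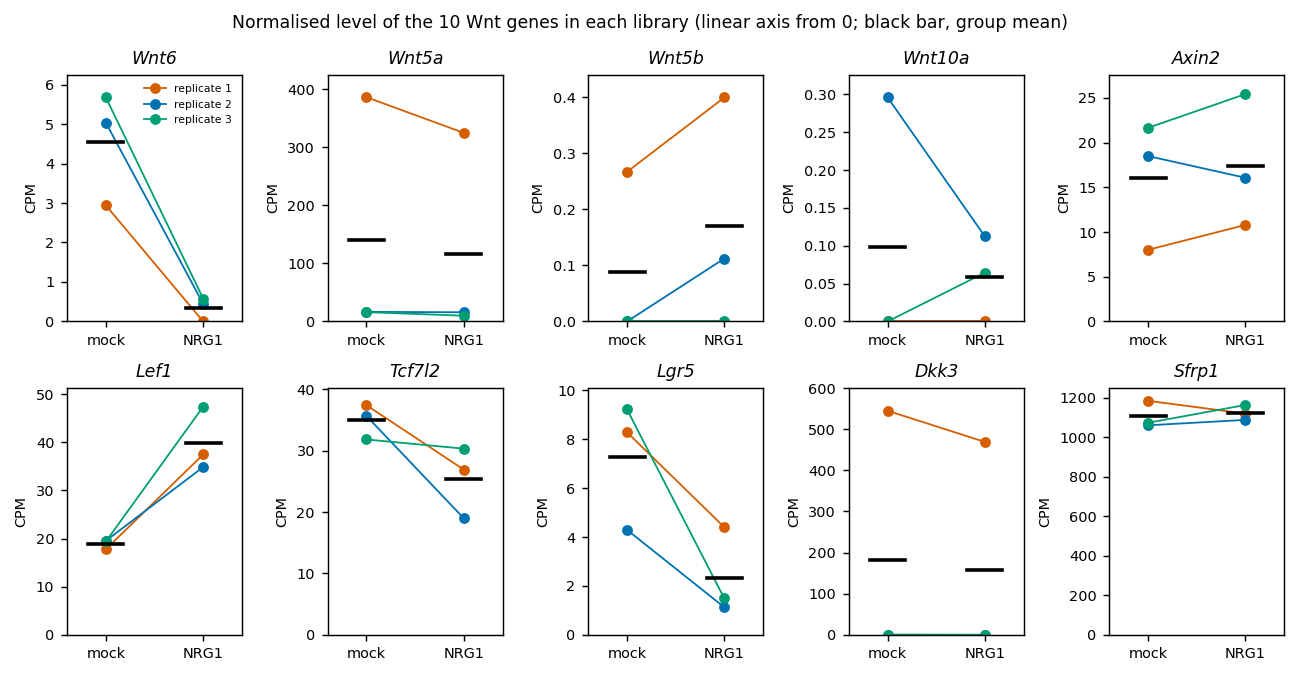
Normalised level (CPM, linear axes from 0) of the 10 genes in the 3 mock and 3 NRG1 libraries, with lines joining the samples of a replicate and black bars at the group means. *Wnt6* ends between 0 and 0.58 CPM after NRG1, *Lef1* is higher in all 3 NRG1 libraries, and *Wnt5a* and *Dkk3* are high only in replicate 1.

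*Lef1*, a DNA-binding partner of β-catenin and itself a target of the pathway, was the only member past both thresholds upwards. It was at 17.8, 19.5 and 19.4 CPM in mock and at 37.5, 34.8 and 47.4 CPM in NRG1 samples, without overlap of the groups, as was seen with NRG1 higher in 10.2% of tested genes. The log2 fold change was 1.08 (SE 0.14), a 2.11-fold higher level, and it was 1.07, 0.83 and 1.28 in the pairs. The 3 mock libraries differed little, replicate 1 included. The fitted change lies just over the fold threshold and was 0.98 when replicate 3 was left out. *Tcf7l2*, another factor of the same family, was at 37.4, 35.7 and 31.8 CPM in mock and 26.9, 19.0 and 30.3 CPM after NRG1. All 3 NRG1 libraries were lower than all mock libraries, by little in replicate 3, as was seen in 9.94% of tested genes. The log2 fold change of -0.46 (SE 0.16) did not reach the thresholds. The pair ratios of *Tcf7l2* were -0.47, -0.90 and -0.07.

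*Lgr5*, a receptor for R-spondins that strengthens Wnt signals and marks stem cells in several epithelia, was at 8.28, 4.29 and 9.22 CPM in mock and at 4.40, 1.12 and 1.48 CPM after NRG1. It was lower after NRG1 in each pair, but the groups overlapped, since NRG1 replicate 1 lay just above mock replicate 2. The log2 fold change was -1.81 (SE 0.32), with pair ratios of -0.88, -1.76 and -2.48. Without replicate 3 the change was -1.26 and *Lgr5* no longer passed, and without replicate 1 it was -2.38. In the GRCr8 annotation its span overlaps another coding gene, LOC120093591, and the strand setting of the counting is not given in the sources used here, so reads of the overlap may be affected.

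*Axin2*, the scaffold of the β-catenin destruction complex and a common reporter of canonical signalling, was not past the thresholds. It was at 8.02, 18.5 and 21.7 CPM in mock and at 10.8, 16.1 and 25.4 CPM after NRG1, a range across replicates that was larger than the difference within any pair. The log2 fold change was 0.14 (SE 0.17), positive in 2 of the 3 pairs. In contrast to *Wnt5a*, *Axin2* was lowest in replicate 1, at 0.46 times the mean of the other cultures. *Sox10*, the Schwann lineage factor, was at 0.38 times in the same comparison.

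The 2 secreted inhibitors among the 10 differed widely in their spread. *Sfrp1*, which binds Wnt ligands outside the cell, was counted at 1185, 1061 and 1074 CPM in mock and 1121, 1089 and 1164 CPM after NRG1. It varied by less than a log2 ratio of 0.12 in any pair, in either direction, with a fitted change of 0.02 (SE 0.13). *Dkk3*, a divergent member of the Dickkopf family, had 4079, 0 and 7 counts in mock and 3520, 0 and 2 after NRG1. Of its counts, 99.9% came from replicate 1, where it stood at 545.0 CPM in mock and 469.3 CPM in the NRG1 sample. *Pdgfra*, *Thy1* and *Dcn*, which mark fibroblasts, and *Acta2*, which marks contractile cells, showed the same division, and *Thy1* was at 1268 and 1143 CPM in replicate 1 and at 0 in the rest. The part of these cells in the *Dkk3* and *Wnt5a* counts was not tested.

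**Figure D3:**
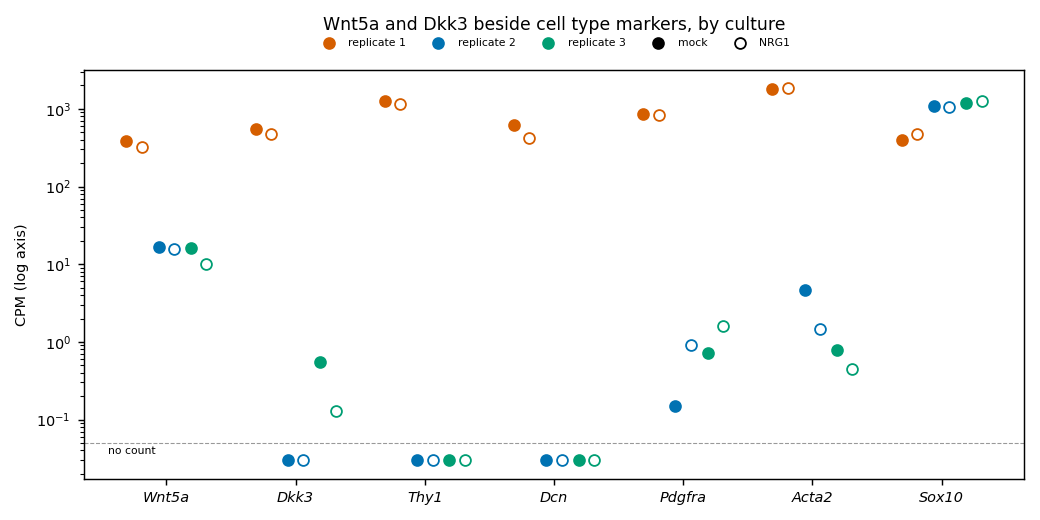
CPM (log axis, libraries with no count drawn below the dashed line) of *Wnt5a* and *Dkk3* beside markers of fibroblasts (*Thy1*, *Dcn*, *Pdgfra*), contractile cells (*Acta2*) and Schwann cells (*Sox10*), coloured by replicate, filled for mock and open for NRG1. Replicate 1 is the highest for *Wnt5a*, *Dkk3* and the first 4 markers and the lowest for *Sox10*.

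The remaining genes of the pathway were taken from lists by role, which hold 98 further symbols. Of these, 88 had a row in the files and 59 passed the filter. At an adjusted p of at most 0.01 in edgeR's quasi-likelihood test, 8 rose and 1 fell, 15.3% of those tested, against 11.8% of all 9740 genes. Their median log2 fold change was 0.12, beside -0.03 over all genes tested. The lists were chosen with earlier results of these data known, so these shares are a description. For the counts within single lists below, the shares over all tested genes are 6.31% upwards and 5.51% downwards. Past both thresholds were *Ccnd1* and *Rspo2* upwards and *Sostdc1* downwards. Over all tested genes, 1.56% passed both upwards and 1.91% downwards.

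*Sostdc1*, a secreted antagonist of Wnt and BMP signals, was at 31.1, 54.0 and 30.6 CPM in mock and at 11.7, 15.3 and 11.4 CPM in NRG1 samples. It fell in each pair, with a log2 fold change of -1.56 (SE 0.15, adjusted p = 1.3e-05 in edgeR). The other 3 tested inhibitors of that list, *Dkk4*, *Sfrp4* and *Kremen1*, did not pass, with log2 fold changes between 0.03 and 0.30. *Rspo2*, a ligand of Lgr receptors, rose from 1.07, 2.81 and 4.49 CPM to 2.80, 7.64 and 7.62 CPM, a log2 fold change of 1.09 (SE 0.26, adjusted p = 0.0087 in edgeR). It is a weakly counted gene, and it no longer passed with DESeq2 (adjusted p = 0.059) or when replicate 2 or replicate 3 was left out (adjusted p = 0.0504 and 0.0203). *Lgr4*, the relative of *Lgr5* with the most counts in the R-spondin list, did not pass (log2 fold change -0.36, standard error 0.12, adjusted p = 0.043 in edgeR).

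Among the 11 tested receptors *Fzd2* rose alone at this level of p. It was at 135.2, 145.8 and 162.0 CPM in mock and 292.4, 231.2 and 318.3 CPM after NRG1. The groups did not overlap, as with NRG1 higher in 10.2% of tested genes. The log2 fold change of *Fzd2* was 0.92 (SE 0.13, adjusted p = 0.00019 in edgeR). *Ptk7*, a pseudokinase co-receptor and the receptor gene with the most counts, had a log2 fold change of -0.17 (SE 0.15), which turned to 0.02 without the replicate block and to 0.07 without replicate 2. None of the 3 genes of ligand release passed, and *Wls*, the carrier that brings Wnt proteins to the surface, had a log2 fold change of -0.40 (SE 0.12, adjusted p = 0.026 in edgeR). Of the 2 further ligands that could be tested, *Wnt3* and *Wnt9a*, neither passed. *Wnt3* was higher after NRG1 in all 3 pairs, with a log2 fold change of 0.90 (SE 0.31, adjusted p = 0.049 in edgeR). Its counts were low, 58 in mock and 128 after NRG1. *Wnt9a* was at 0.19 (SE 0.43) and higher after NRG1 in 2 of the 3 pairs.

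*Ctnnb1*, which encodes β-catenin, was the only one of 15 tested genes of the cytoplasmic machinery to pass. Its level rose from 536.9, 713.1 and 900.3 CPM to 796.2, 1105 and 1263 CPM, a log2 fold change of 0.56 (SE 0.12, adjusted p = 0.0052 in edgeR), with log2 pair ratios of 0.57, 0.63 and 0.49. It no longer passed without replicate 1, 2 or 3 (adjusted p = 0.0174, 0.0128 and 0.0392 in edgeR). In the nuclear list *Tle3*, a Groucho corepressor that TCF/LEF factors recruit, rose with 0.56 (SE 0.13, adjusted p = 0.0057 in edgeR), while the other 8 tested genes there did not pass. This call was lost without replicate 1 (adjusted p = 0.0243 in edgeR) and without replicate 3 (0.0635). *Vangl1*, a core component of planar cell polarity, was the only one of 8 to pass in that list, with 0.68 (SE 0.15, adjusted p = 0.0046 in edgeR). It did not pass with DESeq2 (adjusted p = 0.0103) or, in edgeR, without replicate 3 (adjusted p = 0.0897). *Celsr2*, a polarity cadherin with the most counts of its list, was at -0.48 (SE 0.16, adjusted p = 0.036 in edgeR).

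In the list of feedback and target genes, 3 of the 6 tested genes that are not among the 10 rose and none fell. Over all tested genes, 6.31% rose and 5.51% fell at this adjusted p. With 6 genes in a list written with earlier results known, the count is not read as an enrichment. *Ccnd1*, the G1 cyclin D1, went from 347.3, 420.8 and 685.9 CPM in mock to 1050, 1104 and 1559 CPM after NRG1, with a log2 fold change of 1.39 (SE 0.13, adjusted p = 1.2e-05 in edgeR). *Myc* rose by 0.72 (SE 0.13, adjusted p = 0.0017 in edgeR), and *Tnfrsf19*, a receptor of the TNF family, by 0.85 (SE 0.13, adjusted p = 0.00035 in edgeR). *Myc* no longer passed without replicate 1 (adjusted p = 0.0140 in edgeR), whereas *Ccnd1* and *Tnfrsf19* passed in each fit that kept the replicate block. *Ccnd1* and *Myc* are also induced by growth factors through MAP kinase signalling, so they are not specific to the Wnt pathway. The feedback gene *Nkd2*, with the most counts of the list, was at 0.09 (SE 0.13). *Nkd1*, which was singled out after its values were seen, had -1.20 (SE 0.30) and missed the threshold narrowly, with an adjusted p of 0.0102 in edgeR. Its log2 pair ratios were uneven, at -0.10, -1.63 and -2.10 in replicates 1, 2 and 3. *Notum*, an enzyme that inactivates Wnt proteins, was at -0.45 (SE 0.27, adjusted p = 0.24 in edgeR). The list thus held *Lef1*, *Ccnd1*, *Myc* and *Tnfrsf19* at higher, *Lgr5* at lower levels after NRG1, with *Axin2*, *Nkd1*, *Nkd2* and *Notum* not passing at an adjusted p of 0.01.

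**Figure D4:**
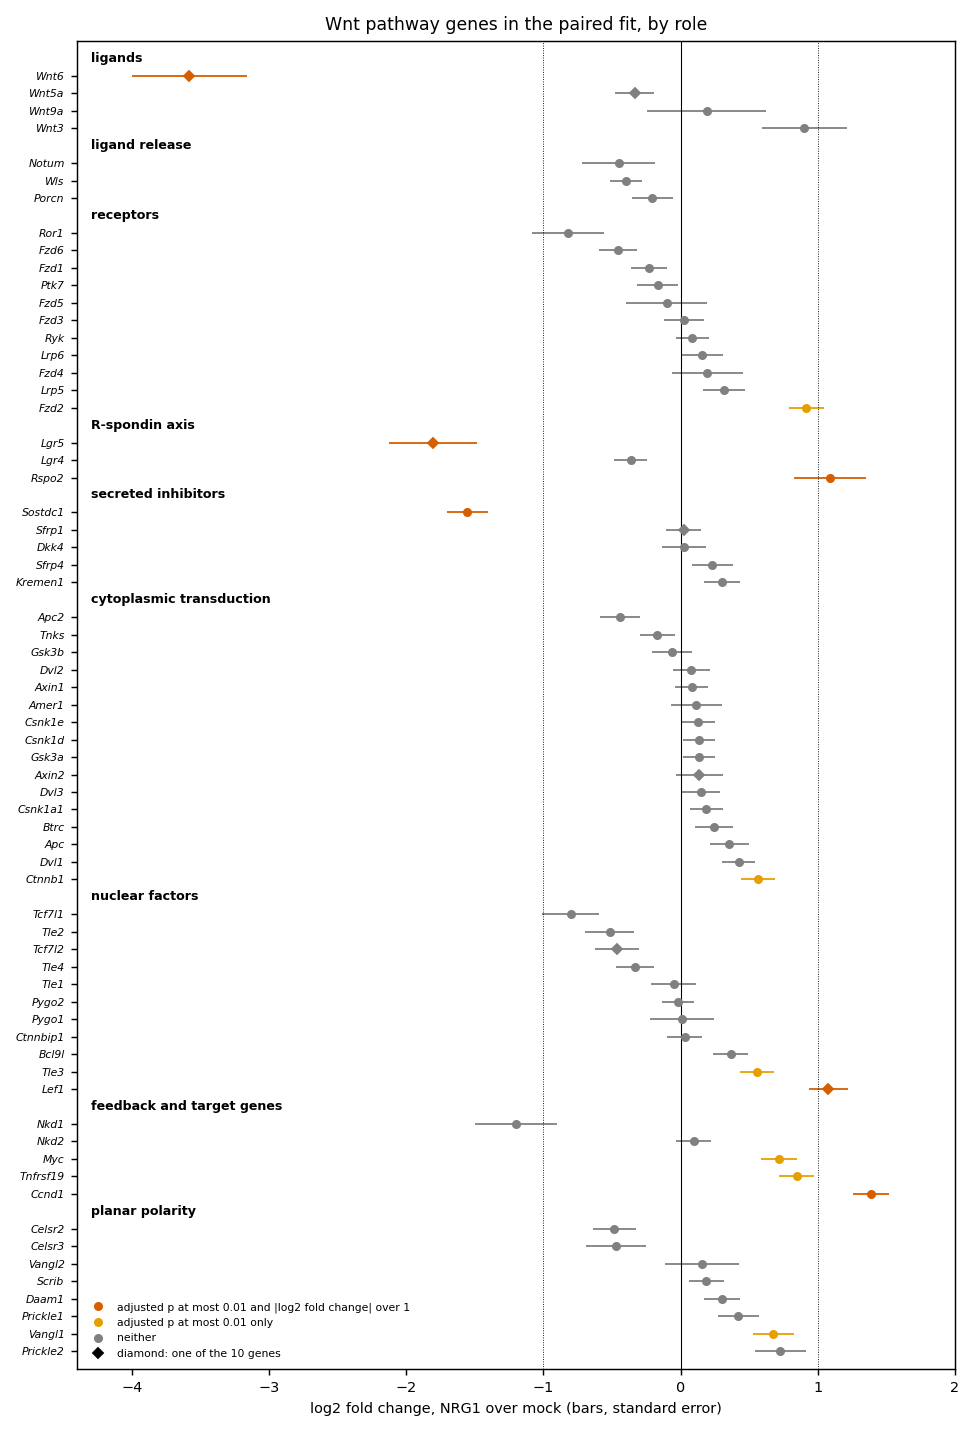
Log2 fold change of NRG1 over mock (x axis, bars are standard errors) for the 66 tested genes of the lists, grouped by role, with diamonds for the members among the 10 genes, dark orange past both thresholds, light orange at an adjusted p of at most 0.01 only and grey for the rest. A gene of 2 lists is drawn once, and dotted lines mark a log2 fold change of -1 and 1.

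To describe which genes had a profile like that of *Wnt6*, Pearson's r of log2 CPM was taken over the 6 libraries. The 5 highest values, from 0.993 to 0.995, belonged to *Add3*, *Atl1*, *Mest*, *Gpr37l1* and *RGD1309534*. All 5 were lower after NRG1 in each of the 3 pairs, with log2 fold changes of -0.82, -0.77, -1.26, -1.65 and -0.67. Such a fall follows from how they were picked, since the *Wnt6* profile is mostly its own fall after NRG1. *Wnt6* had the largest fitted change of the 6 genes. *Gpr37l1*, an orphan receptor of glia, had the next largest and went from 63.3, 79.2 and 77.8 CPM in mock to 16.8, 27.9 and 26.3 CPM. With 6 points that share libraries and a treatment, such values are a description of likeness only.

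**Figure D5:**
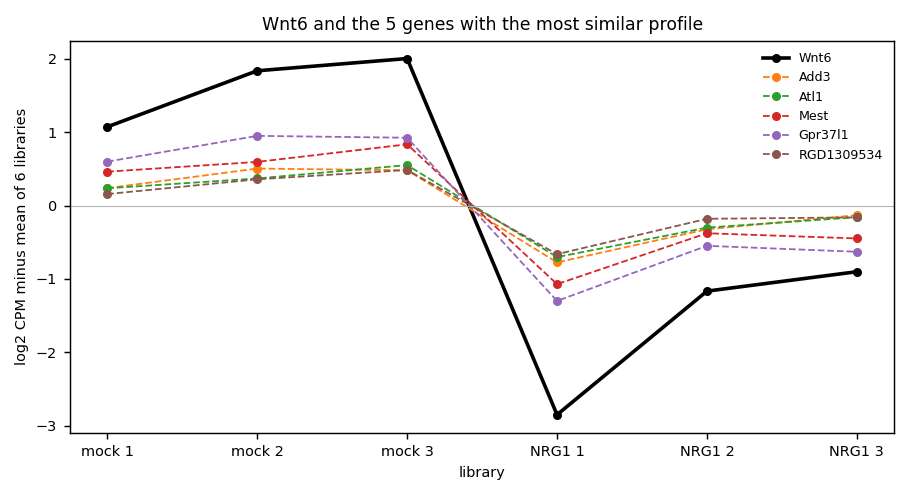
Log2 CPM of *Wnt6* (black) and of the 5 genes with the highest Pearson's r to it, each minus its mean over the 6 libraries named on the x axis. All 6 genes are above their mean in the mock and below it in the NRG1 libraries, which follows from the choice by r. NRG1 replicate 1, where *Wnt6* had no count, is the lowest point of each.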

How the data were processed

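RNA-seq libraries of poly(A) RNA (Illumina TruSeq) were made by the authors from 3 mock and 3 NRG1 samples. Reads had been aligned by them to rn5 with TopHat2 2.0.10 and counted with HTSeq on RefSeq genes; the deposited counts are whole numbers per gene symbol, with no normalisation. The summary lines of each file were left out, and 47.0% to 49.9% of its alignments had been assigned to genes. Groups and replicate numbers were taken from the labels. In edgeR 4.0.16 (R 4.3.3), filterByExpr with a minimum count of 10 kept 9740 of 17327 genes. After TMM normalisation, a quasi-likelihood model with replicate and condition was fitted, as in the paired design of the study, and Benjamini-Hochberg adjustment covered all genes tested. Standard errors were derived from the F statistic (log2 fold change over the root of F). CPM use the normalised library sizes, and log2 CPM and pair ratios a prior count of 2. No pair of libraries agreed within sampling noise (chi-square per degree of freedom at least 21.4). Replicate numbers marked independent experiments, and the deviations of same-numbered samples from their group means correlated across genes with r = 0.91, 0.67 and 0.81, against -0.80 to 0.51 for different numbers.

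The 10 genes, the pathway and marker lists and the thresholds were chosen with earlier results of these data known. Named in the text are the 10 genes, further listed genes at an adjusted p of at most 0.01, the gene with the most counts in each list and the 5 genes most like *Wnt6*. The other genes named (*Dkk4*, *Sfrp4*, *Kremen1*, *Wnt3*, *Wnt9a*, *Nkd1*, *Notum* and those named only in the closing section) fall outside this rule and were chosen after their values were seen; marker genes were named as checks of the culture. Alternatives were no replicate block, DESeq2 1.42.0, RLE normalisation, no low-count filter, an adjusted p of 0.05 and leaving out each replicate. Simulated counts with known changes were used to test the scripts. A gene first placed in the Schwann cell marker list was left out of it and is not reported here. Gene lengths were not used here, so levels of different genes are not compared.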

Additional observations from a re-analysis of the deposited data

How the results depend on the processing

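Without the replicate block no gene passed in edgeR (smallest adjusted p 0.14), so the counts of members, of other pathway genes and of all genes were 0 in each direction, although 1334 genes, 3 of the 10 and 6 of the other pathway genes had an unadjusted p under 0.05. The log2 fold changes of *Wnt6*, *Lgr5* and *Lef1* were then -3.55, -1.67 and 1.08. DESeq2 called 123 genes downwards in place of 186, and of the other pathway genes 1 upwards in place of 2 and 2 downwards in place of 1, the latter also at the adjusted p alone. RLE normalisation likewise gave 2 downwards by both rules. Without the low-count filter 2 of the other pathway genes were called downwards. At the adjusted p alone, 9 of the other pathway genes then rose and 7 fell. Of all genes, 848 rose in place of 615 and 857 fell in place of 537. At an adjusted p of 0.05, 1124 genes rose and 1136 fell. Of the other pathway genes, 11 rose and 9 fell, with 2 of each past the fold threshold.

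Leaving out each replicate in turn gave 133 to 202 genes called upwards and 122 to 299 downwards, the latter highest without replicate 1 and lowest without replicate 2. At the adjusted p alone it gave 408 to 590 upwards and 253 to 601 downwards, both lowest without replicate 3. Of the members, 0 to 1 were called upwards and 1 to 2 downwards, the lower values without replicate 3, where *Lef1* was at 0.98 and *Lgr5* at -1.26, and at the adjusted p alone 1 rose and 1 to 2 fell. Of the other pathway genes, 1 to 3 were called upwards and 1 to 3 downwards, the highest values without replicate 1, and at the adjusted p alone 4 to 8 rose and 1 to 5 fell, with 4 without replicate 3 and 5 without replicate 1. *Wnt6* stayed past both thresholds in each of these fits, with -4.01 to -3.33, and in DESeq2, with -3.80. *Ptk7*, at -0.17, changed sign to 0.018 without the replicate block and ranged from -0.333 to 0.073 with each replicate left out, positive without replicate 2. The causes of these shifts were not tested. Levels near 3 counts, as for *Wnt5b*, *Wnt10a* and *Wnt6* after NRG1, are limited by depth.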

Other observations

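Besides *Wnt5a* and *Dkk3*, further Wnt genes were found mainly in replicate 1, a choice made after the values were seen. Over the 6 libraries, 63 other pathway genes had at least 100 counts. Of these, 5 were more than 10 times higher in replicate 1 than in the mean of replicates 2 and 3. By the same measure, 0 were more than 10 times lower. The share over all genes was not counted, so these numbers are not read as a trait of the pathway. *Wnt4*, a ligand, had 178 and 241 counts in the mock and NRG1 samples of replicate 1 and at most 1 in each of the other libraries. *Frzb*, a secreted Frizzled-related inhibitor, had 68 and 69 counts in replicate 1 and no count elsewhere. *Ror2*, a receptor for Wnt5a, was at 47.3 CPM in replicate 1 and 0.58 CPM in the others, and *Fzd1* at 411.1 and 15.5 CPM. *Rspo1* was at 14.7 and 0.69 CPM, the latter close to the floor. With 1 experiment of this kind, the difference has no replicate check, and *Ror2*, *Rspo1*, *Wnt4* and *Frzb* did not pass the low-count filter.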
